A study of Mus musculus with 24 samples.

Results

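In mouse oocytes and preimplantation embryos, 484 stretches of the genome inside protein-coding genes carried an N6-methyladenosine (m6A) peak in every maternal-stage library and in no embryonic-stage library. They were found by pooling the peak intervals of 12 libraries, merging those that overlapped, and keeping merged regions with the midpoint in a gene body. A region was kept if it overlapped a peak in all 6 GV oocyte, MII oocyte and zygote lists and in none of the 6 lists of 2-cell embryos, 8-cell embryos and blastocysts. These maternal-only regions were 2.15% of the 22504 merged regions in gene bodies, out of 31379 merged regions in all. They lay in 432 genes, 4.39% of the 9841 genes with a merged region. The choice itself rests on the contrast between maternal and embryonic peak lists, so that contrast is a description here and carries no test.

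m6A is a methyl mark that a nuclear writer complex built around Mettl3 and Mettl14 places on adenosines of messenger RNA, mostly within a short motif around GGAC and often near the stop codon. Reader proteins bind the mark, and Ythdf2, a reader that directs RNA to decay, is required in the mouse oocyte. A fully grown oocyte is transcriptionally silent and lives on stored RNA, which is translated in steps through meiosis and fertilisation. Much of that RNA is removed by the 2-cell stage, when the embryonic genome takes over.

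All animals were C57BL/6N mice aged 8 weeks, and females were primed with gonadotropin. GV oocytes, arrested at the germinal vesicle stage, were taken 48 h after priming, held in a phosphodiesterase inhibitor, and limited to those with a surrounded nucleolus. MII oocytes, arrested at the second meiotic metaphase, came 14 h after chorionic gonadotropin. After mating, zygotes were collected at 27 to 28 h, 2-cell embryos at 39 to 43 h, 8-cell embryos at 68 to 70 h and blastocysts at 92 to 94 h after that injection. Each stage had 2 biological replicates, with 49 to 110 oocytes or embryos in a pool, stripped of the zona pellucida. RNA fragments bound by an m6A antibody were sequenced and compared with input RNA, and the list of each library held 6914 to 11959 peaks. Read depth was unknown and the inputs were not analysed here, so a missing peak can mean no mark, little RNA or a mark under the detection limit, and fewer cells with the RNA and less RNA per cell cannot be told apart.

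Markers of the oocyte and of the cumulus cells around it were read as genes with a merged region. Gdf9 and Bmp15, the growth factors secreted by oocytes, and Mos and Nlrp5 had one in all 6 maternal lists. In embryonic lists, Gdf9 and Nlrp5 had one in 2, Bmp15 in 1 and Mos in 0. Ooep had one in 1 maternal and 0 embryonic lists, and Zp1, Zp2 and Zp3 had none in any of the 12. Of 24 cumulus and granulosa cell markers, between 2 and 5 had a region in a maternal list and 1 or 2 in an embryonic list. Kitl and Cyp11a1 had one in 5 maternal lists, Inhba in 4, Cyp19a1 in 2 and Has2 in 1, all with 0 embryonic lists, while Inhbb had one in 2 embryonic lists and Nr5a2 in all 12. The other 17, among them Amh, Fshr, Foxl2 and Ptgs2, were at 0 in all 12 lists. None of the 24 held a maternal-only region, and the part of such cells in the results was not tested.

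Genome sequence under the peaks was not used here, but RefSeq gives the 250 bases upstream of annotated starts on GRCm38.p6, the mm10 assembly. Of 32851 such windows extended by 50 bases past the start, 27 overlapped a maternal-only region, at 23 regions. In 12 of these windows the region crosses the outermost start of the gene that holds it, so the upstream sequence runs into the peak, and 4 of the 12, chosen after their values were seen, are shown. Capitals mark the bases inside the maternal-only region, each line ends at the base before the start, and each is written 5′ to 3′ on the strand of the gene.
Rgs2, minus strand, region chr1:144004014-144004241: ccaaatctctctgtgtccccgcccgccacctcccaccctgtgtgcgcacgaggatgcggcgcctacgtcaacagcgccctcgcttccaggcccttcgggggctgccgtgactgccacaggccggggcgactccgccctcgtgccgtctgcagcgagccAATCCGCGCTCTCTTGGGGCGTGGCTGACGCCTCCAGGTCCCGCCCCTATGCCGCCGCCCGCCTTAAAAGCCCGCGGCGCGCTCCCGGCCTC
Kpna7, minus strand, region chr5:145009344-145009747: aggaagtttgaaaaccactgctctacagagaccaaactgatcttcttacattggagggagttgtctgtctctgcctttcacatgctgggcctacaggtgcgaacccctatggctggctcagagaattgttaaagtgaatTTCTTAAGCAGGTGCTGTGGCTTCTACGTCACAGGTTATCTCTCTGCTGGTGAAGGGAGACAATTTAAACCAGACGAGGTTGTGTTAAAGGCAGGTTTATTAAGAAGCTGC
Onecut1, plus strand, region chr9:74861793-74862172: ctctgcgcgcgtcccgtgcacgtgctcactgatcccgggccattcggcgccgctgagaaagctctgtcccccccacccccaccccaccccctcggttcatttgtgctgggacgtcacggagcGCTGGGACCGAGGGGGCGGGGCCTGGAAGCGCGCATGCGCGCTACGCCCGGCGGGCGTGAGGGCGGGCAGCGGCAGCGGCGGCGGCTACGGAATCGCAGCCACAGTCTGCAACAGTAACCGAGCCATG
Pcdh10, plus strand, region chr3:45378348-45378626: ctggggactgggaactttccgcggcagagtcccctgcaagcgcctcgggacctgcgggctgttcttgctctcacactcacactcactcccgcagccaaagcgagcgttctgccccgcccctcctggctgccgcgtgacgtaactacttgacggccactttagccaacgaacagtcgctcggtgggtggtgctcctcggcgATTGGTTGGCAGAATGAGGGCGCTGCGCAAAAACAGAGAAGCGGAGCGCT

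The peak intervals reached 92 bases upstream of the annotated Rgs2 start, 111 upstream of Kpna7, 128 upstream of Onecut1 and 50 upstream of Pcdh10. The letters GGAC, or GTCC for the other strand, occurred in 25 of the 27 windows and in 82.3% of all upstream windows of this length, so the match separates little. Kpna7 encodes an importin alpha of the oocyte and early embryo, and its region had folds of 4.79 and 6.55 in GV oocytes, 11 and 9.35 in MII oocytes, and 14.4 and 16.3 in zygotes. Onecut1, a homeobox transcription factor gene, had 4.80 and 7.18 in GV oocytes, 18.3 and 9.30 in MII oocytes, and 6.64 and 19 in zygotes, with its MII and zygote values overlapping. The peak lists carry no strand, and the Pcdh10 region also reaches into the upstream window of a gene model on the other strand. No maternal-only region overlapped any of 1005 annotated miRNA hairpins.

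The values behind each region are the peak caller's own, given by the authors for each library. Fold is antibody-bound over input signal at the best peak of the region, and the percentile ranks the −log10 q of that peak within its own list, with the strongest peak at 100. Across the 484 regions the median fold of the 6 libraries ran from 1.93 to 17.4, with a median of 5.49. A fold of 5 or more in all 6 libraries was reached by 111 regions, and 1 region, at Pcdh10, stayed at 10 or more. The mean percentile over the 6 libraries ran from 9.39 to 99.6 with a median of 57.9, and 28 regions stood at 90 or more. Regions were 200 to 2339 bp wide, with a median of 553.5 bp, and the median distance to the nearest embryonic peak was 36632.5 bp.

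The highest-ranking region lay in Rgs2, a regulator of G-protein signalling that restrains calcium release in mouse eggs. At chr1:144001402-144001931, in the middle of the gene, its folds were 5.83 and 5.69 in GV oocytes, 5.96 and 5.33 in MII oocytes, and 5.59 and 5.84 in zygotes, with a mean percentile of 99.6. All 6 values lay close together. The second region, which crosses the start printed above, had folds of 4.47 and 4.33 in GV oocytes, 6.39 and 7.24 in MII oocytes, and 11 and 8.61 in zygotes. Both zygote values there stood above all 4 others, unlike the mid-gene region. The nearest embryonic peak was 194689 bp away from the mid-gene region, and no embryonic list had a peak anywhere over the gene.

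Other regulators of the meiotic arrest were marked as well. Mos encodes the kinase that starts the MAP kinase cascade of the metaphase II arrest, and its gene is 1448 bp long. Its region at chr4:3870699-3871772 spanned most of the gene, with folds of 5.49 and 6.63 in GV oocytes, 4.09 and 4.09 in MII oocytes, and 3.37 and 3.99 in zygotes. The values in GV oocytes were above all others. Fbxo43 encodes Emi2, the inhibitor of the anaphase-promoting complex in the same arrest. Its folds were 6.83 and 8.46 in GV oocytes, 3.70 and 3.74 in MII oocytes, and 4.06 and 4.25 in zygotes, again highest in GV oocytes. Of 29 meiosis regulators with a merged region, these 3 genes held a maternal-only one (10.3%), beside 4.39% of all genes. The rule needs a call in all 6 maternal libraries, and 11 of the 29 had a region called in all 6. Of all genes, 2090 had such a region and 432 a maternal-only one.

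Genes that act on the stored RNA itself gave a few members. Eif4e1b, the oocyte cap-binding protein, had folds of 2.16 and 2.06 in GV oocytes, 1.76 and 2.48 in MII oocytes, and 2.82 and 2.63 in zygotes. Pabpn1l, a nuclear-type poly(A)-binding protein needed for maternal RNA clearance in mice, carried its region at chr8:122622474-122622743, with the midpoint 126 bp from the start. Folds at Pabpn1l were 3.31 and 2.74 in GV oocytes, 3.67 and 4.26 in MII oocytes, and 7.13 and 7.28 in zygotes, so both zygote values were above the rest. Tent5b, of the family of non-canonical poly(A) polymerases, had the fourth highest rank and a region of 1781 bp at chr4:133485964-133487744, near the 3′ end of the gene. Its folds were 7.58 and 7.71 in GV oocytes, 5.51 and 5.96 in MII oocytes, and 5.03 and 6.72 in zygotes. The decapping cofactor Dcp1a ranked lower, with folds of 1.48 to 3.78, and had peaks elsewhere in 4 of the 6 embryonic lists. In all, 2 of 21 translation and storage genes (9.52%) and 2 of 33 RNA decay genes (6.06%) held a maternal-only region. A region called in all 6 maternal libraries was held by 7 of the 21 and by 11 of the 33.

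None of the 21 m6A writers, erasers and readers with a merged region held a maternal-only one, while 6 of them held a region called in all 12 libraries. Of all 9841 genes with a merged region, 4.39% held a maternal-only region and 6.37% one called in all 12. Of 24 genes of the 2-cell stage and genome activation, and of 26 blastocyst lineage genes, 0 held a maternal-only region. Of the 24, 0 had a region called in all 6 maternal libraries, which the rule needs, so that result was fixed beforehand. Such a region was held by 5 of the 26 lineage genes and by 10 of the 21 m6A genes. Of all genes, 2090 had such a region and 432 a maternal-only one. Dppa2, a DNA-binding protein of pluripotent cells, was the single member of 23 pluripotency genes (4.35%). Of the 23, 5 had a region called in all 6 maternal libraries. The Dppa2 region had folds of 3.66 to 5.95, and the gene had a peak elsewhere in all 6 embryonic lists.

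Oocyte-specific genes gave the largest share of the 16 gene lists, with 9 of 29 holding a maternal-only region (31.0%, beside 4.39% of all genes). Of these 29, 15 had a region called in all 6 maternal libraries. None of the 29 held a region called in all 12 libraries, which also needs a call in all 6 maternal ones. Of all genes, 2090 had a region called in all 6 and 627 one called in all 12. The difference was not tested. The Obox genes encode homeobox factors of the oocyte and early embryo, and 3 of the 6 in the annotation were members. These 3 were also the only ones with a region called in all 6 maternal libraries. At Obox1 the folds were 5.59 and 5.14 in GV oocytes, 2.44 and 4.23 in MII oocytes, and 3.91 and 4.07 in zygotes. Obox2 had 2.61 and 2.20 in GV oocytes, 2.86 and 4.63 in MII oocytes, and 5.72 and 3.73 in zygotes. Thus GV oocytes were highest at Obox1, and lowest at Obox2. A second Obox2 region downstream, at chr7:15398049-15398311, ran the other way, with 2.39 to 2.90 in MII oocytes and zygotes against 4.33 and 4.03 in GV oocytes.

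Several genes of the NLRP family encode oocyte proteins with a nucleotide-binding and leucine-rich repeat layout. The family held 8 maternal-only regions in 6 of 13 genes (46.2%, beside 4.39% of all genes). Of the 13, 8 had a region called in all 6 maternal libraries. At Nlrp4b, chr7:10714110-10715673, the folds were 4.55 and 3.73 in GV oocytes, 3.84 and 4.40 in MII oocytes, and 4.60 and 3.33 in zygotes, with no order between stages. Nlrp5 encodes MATER, a core protein of the subcortical maternal complex, without which mouse embryos stop at the 2-cell stage. Its highest-ranking region, at chr7:23404611-23404832, had 6.41 and 4.56 in GV oocytes, 7.10 and 12.6 in MII oocytes, and 21.3 and 16.6 in zygotes. Zygote folds at Nlrp5 were therefore above both earlier stages. Nlrp14 carried regions at chr7:107181514-107183075 and chr7:107166643-107166976, with folds from 2.30 to 4.18 and from 3.72 to 5.89. Neither gene end was near, the closest being 15808 bp from the first.

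The PRAME family of leucine-rich repeat proteins, which includes the Oog genes, held 11 regions in 8 of 34 genes (23.5%, beside 4.39% of all genes). Of the 34, 14 had a region called in all 6 maternal libraries. Pramel34 ranked second of all 484, with folds of 6.27 and 8.26 in GV oocytes, 9.39 and 8.76 in MII oocytes, and 7.92 and 7.40 in zygotes. Oog4 was flatter, at 2.54 to 2.88 in all 6 libraries. Pramel47 had the highest single value, 47.3 in GV oocyte replicate 2, with 23.9 in the other GV pool and 6.64 to 15.3 in MII oocytes and zygotes. Copies of the Obox, NLRP and PRAME genes are alike in sequence and lie in clusters, and how reads that match several copies were treated is not given in the sources used here, so the gene assigned to a peak in these families is uncertain.

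**Figure D1:**
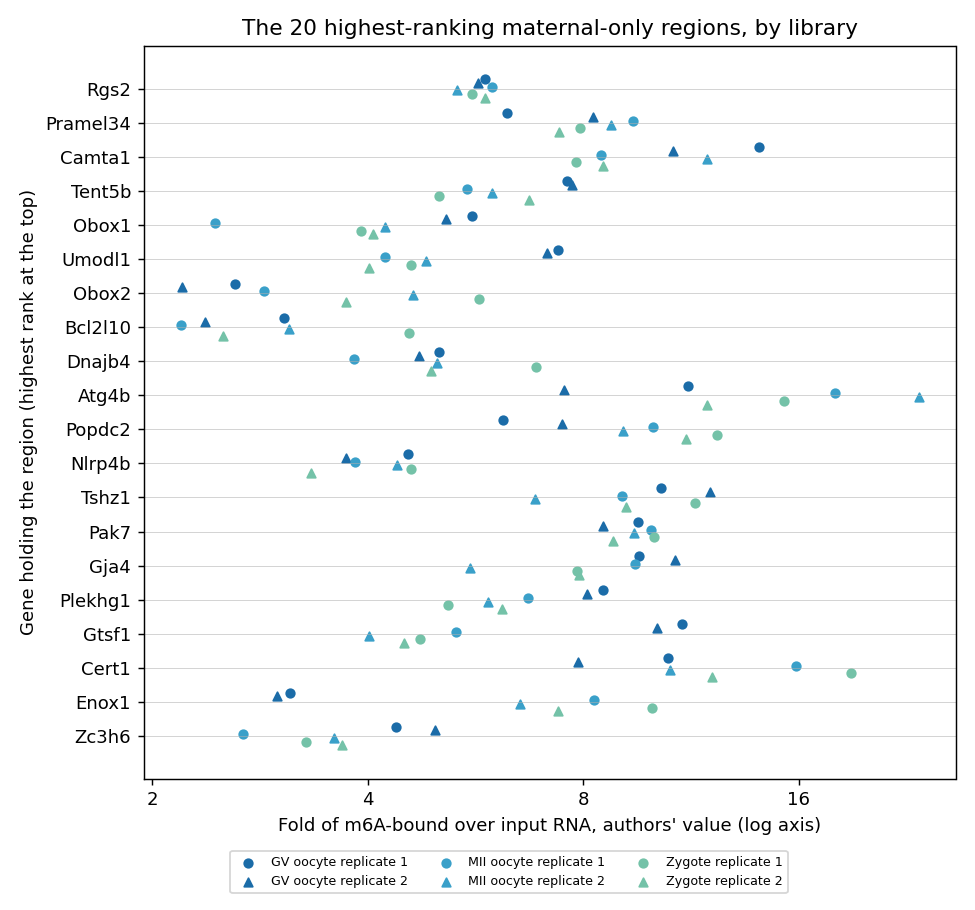
Fold of m6A-bound over input RNA (x axis, log scale) at the 20 highest-ranking maternal-only regions, 1 region a gene (y axis), with a point for each of the 6 maternal libraries. Rgs2 shows 6 values between 5.33 and 5.96, whereas Umodl1 and Gtsf1 are highest in both GV libraries and Enox1 lowest in them.

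Of 21 maternal-effect and subcortical complex genes, Dnmt1, Bnc1 and Nlrp5 held a maternal-only region (14.3%, beside 4.39% of all genes). In this list, 8 genes had a region called in all 6 maternal libraries. That list and the genes of DNA methylation share Dnmt1, the maintenance DNA methyltransferase, whose oocyte form protects imprints in the mouse embryo. Its region at chr9:20927117-20927330 lay within the gene, 20018 bp from the nearer end. Folds were 4.08 and 4.29 in GV oocytes, 9.53 and 9.48 in MII oocytes, and 8.23 and 9.79 in zygotes, so GV oocytes stood well under the other 4 libraries. Tet3, the dioxygenase that oxidises methylcytosine in the zygote, had a region 2082 bp from its start with folds of 2.76 to 3.55, and peaks elsewhere in 5 embryonic lists. Zbtb33, which encodes the methyl-DNA binding protein Kaiso, completed the 3 of 14 genes of DNA methylation (21.4%). Of these 14, 4 had a region called in all 6 maternal libraries. Bnc1, which encodes the zinc finger protein basonuclin, had folds of 6.20 and 6.97 in GV oocytes, 3.52 and 3.87 in MII oocytes, and 4.15 and 4.46 in zygotes. Of 43 histone lysine methyltransferase and demethylase genes, Setdb2 alone held a member (2.33%), and its region also lies in an overlapping gene model. Of the 43, 13 had a region called in all 6 maternal libraries.

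Of 18 small RNA and retrotransposon silencing genes, Gtsf1 and Tdrd12 were members (11.1%), and of 14 BCL2 family and cell death genes only Bcl2l10 (7.14%). The share of all genes was 4.39%. A region called in all 6 maternal libraries was held by 4 of the 18 and by 3 of the 14. Gtsf1, a zinc finger protein of the piRNA pathway, carried adjacent regions at chr15:103406875-103407361 and chr15:103407506-103408111. The second had 11 and 10.2 in GV oocytes, 5.31 and 4.02 in MII oocytes, and 4.73 and 4.49 in zygotes. The first stayed at 2.51 to 4.49 apart from 8.07 in zygote replicate 1. Bcl2l10, an oocyte-expressed member of the BCL2 family, held 1 region by each end of a gene of 3883 bp. The region at chr9:75350916-75351518 had folds of 7.01 and 5.37 in GV oocytes, 2.67 and 2.62 in MII oocytes, and 3.35 and 2.32 in zygotes. At chr9:75347809-75348296 the folds were 3.06 and 2.37 in GV oocytes, 2.19 and 3.10 in MII oocytes, and 4.57 and 2.51 in zygotes. The ends of this gene thus differed, with GV oocytes highest at the first of these regions only.

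Of 30 genes of oocyte and follicle signalling, Gja4, Tgfbr3 and Smad1 held a maternal-only region (10%, beside 4.39% of all genes). A region called in all 6 maternal libraries was held by 10 of the 30. Gja4 encodes connexin 37, which forms the gap junctions between oocyte and granulosa cells. At chr4:127311578-127312344, 541 bp from the 3′ end, its folds were 9.58 and 10.7 in GV oocytes, 9.46 and 5.56 in MII oocytes, and 7.85 and 7.89 in zygotes. Both GV values were the highest, though by little over MII replicate 1. Tgfbr3, the co-receptor betaglycan, ranged from 3.26 to 10.4, and Smad1, a transducer of BMP signals, from 3.19 to 9.49. Umodl1, which encodes a zona pellucida domain protein, had 7.38 and 7.12 in GV oocytes, 4.23 and 4.83 in MII oocytes, and 4.59 and 4.01 in zygotes, at 544 bp from the 3′ end.

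The rest of the 20 highest-ranking regions covered genes with many roles. Camta1, a calmodulin-binding transcription activator in a gene of 802246 bp, had folds of 14.1 and 10.7 in GV oocytes, 8.46 and 11.9 in MII oocytes, and 7.81 and 8.53 in zygotes. Atg4b, the protease that processes LC3 proteins in autophagy, had 11.2 and 7.51 in GV oocytes, 18 and 23.5 in MII oocytes, and 15.3 and 11.9 in zygotes. Cert1, the ceramide transfer protein, had 10.5 and 7.87 in GV oocytes, 15.9 and 10.6 in MII oocytes, and 18.9 and 12.1 in zygotes. The stages did not overlap at Atg4b, where MII oocytes were highest and GV oocytes lowest, while at Camta1 and Cert1 neighbouring stages did. Enox1, an ecto-NOX oxidase gene, was lowest in GV oocytes, at 3.11 and 2.98, with 8.28 and 6.53 in MII oocytes and 9.98 and 7.37 in zygotes.

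Of 34 cytoskeleton and spindle genes, 3 held a maternal-only region (8.82%), Myo5b and Kif5c among them, and 10 a region called in all 6 maternal libraries. Folds ran from 3.62 to 5.57 at the myosin gene Myo5b and from 2.70 to 7.80 at the kinesin gene Kif5c. Dnajb4, an HSP40 co-chaperone, had folds of 3.83 to 6.87, and Popdc2, a cAMP-binding membrane protein, 6.19 to 12.3. The p21-activated kinase gene Pak7 was even, at 8.52 to 10.04. Plekhg1, a guanine nucleotide exchange factor, ran from 5.17 to 8.52, and Zc3h6, a CCCH zinc finger gene, from 2.67 to 4.96. Tshz1, a teashirt zinc finger gene, ran from 6.85 to 12.0. At the bottom of the ranking stood Gucy2f, Timd4 and Ngef, with mean percentiles of 12.6, 10.6 and 9.39, but their folds of 3.53 to 5.58, 1.92 to 3.85 and 2.94 to 6.40 overlapped those of leading members.

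Counting overlapping genes as 1, 372 genes held 1 maternal-only region and 48 held 2. Grip1, a synaptic scaffold gene of 634030 bp, held 4 regions, with folds of 3.41 to 12.2. Ncald, Pde4d, Plekhg1 and Tshz1 held 3 each. The Tshz1 regions lay side by side between positions 84013045 and 84016401 of chromosome 18, whereas those of Pde4d, a cAMP phosphodiesterase gene, were spread along a gene of 1301793 bp. Both Pde4d and Grip1 had peaks elsewhere in 4 embryonic lists.

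Position was read along the whole gene, introns included, for the 382 regions in genes with a known strand. The last 10% of the gene length held 33.5% of them and the first 10% held 9.69%, against 35.8% and 3.94% of regions called in all 12 libraries. Among all genic regions the shares were 33.4% and 8.95%. Within 2000 bp of the 3′ end lay 25.1%, and within 2000 bp of the 5′ end 9.69%. More than 10 kb from both ends lay 181 regions (37.4%).

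The fold in zygotes relative to GV oocytes varied with position along the gene. Of the 37 maternal-only regions in the first 10% of a gene, 19 (51.4%) had a higher fold in both zygote than in both GV libraries and 1 (2.70%) a lower one. In the last 10%, 17 of 128 (13.3%) were higher and 54 (42.2%) lower. The median fold ratio of zygotes to GV oocytes was 1.28 in the first 10%, 1.10 in between and 0.796 in the last 10%. Over the 4 pairings of a zygote with a GV library the median ratio ran from 1.22 to 1.44 in the first 10% and from 0.774 to 0.847 in the last. The same split appeared in the background. Among all 2562 regions called in the 6 maternal libraries, 50.9% were higher and 9.82% lower in the first 10%, and 17.6% were higher and 37.8% lower in the last. In between, 37.3% of the maternal-only regions were higher and 20.7% lower, beside 32.3% and 27.0%. With 2 libraries a stage no test was made, and this grouping by position was chosen after the values were seen.

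Over all positions, zygote folds were higher than GV folds at 144 of 484 regions (29.8%) and lower at 131 (27.1%), beside 28.3% and 29.3% of all 2562. For MII against GV oocytes, 130 were higher and 146 lower (26.9% and 30.2%, beside 24.9% and 31.7%). Between zygotes and MII oocytes, 110 were higher and 55 lower (22.7% and 11.4%, beside 20.2% and 12.7%). These shares stood near the background.

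**Figure D2:**
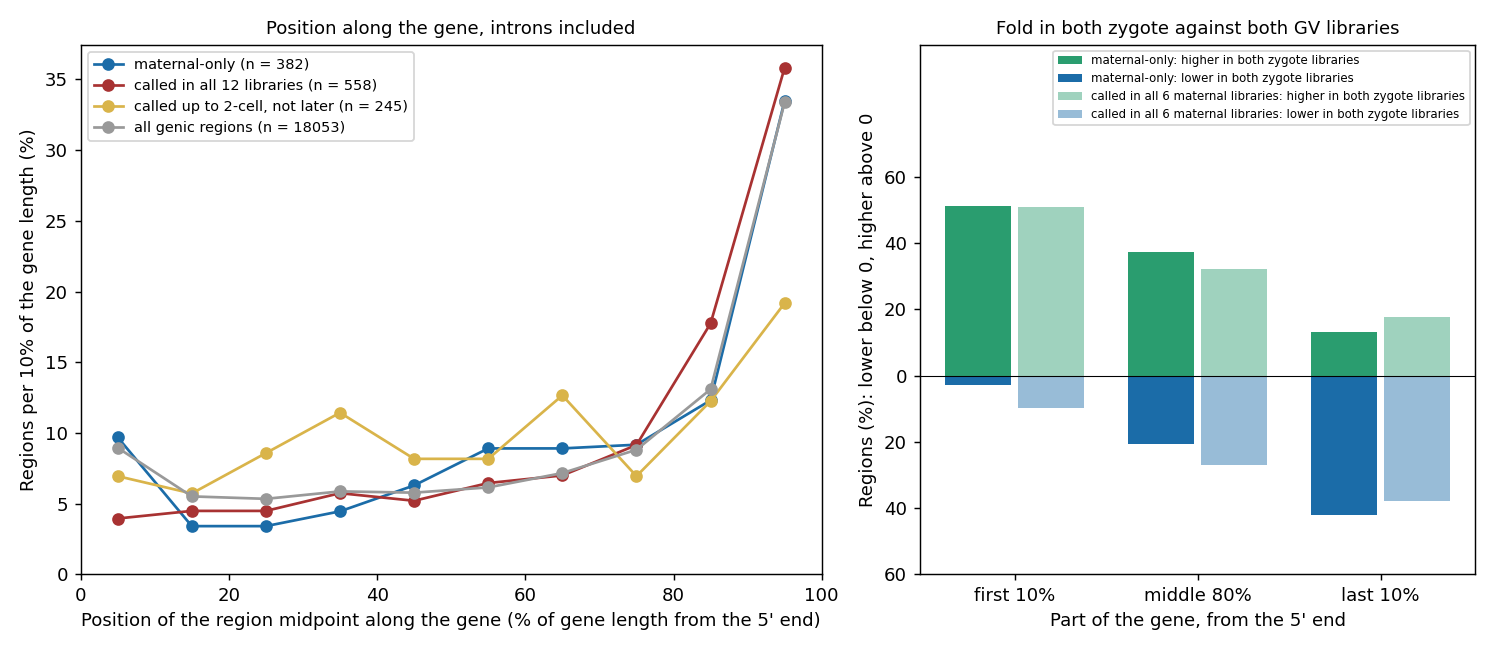
Left, share of regions (y axis, %) in bins of 10% of the gene length from the 5′ end (x axis) for 4 sets of regions with known strand. Right, share of regions (y axis, %) with fold higher (above 0) or lower (below 0) in both zygote than in both GV libraries, by part of the gene (x axis), where the last 10% of maternal-only regions shows 42.2% lower.

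Peaks of maternal-only regions were set beside those of 2 other sets called in all 6 maternal libraries. These were the 688 regions called in all 12 libraries and the 326 called up to both 2-cell libraries and in none later. The sets were compared within each maternal library, by an exact two-sided sign-flip permutation test over the 6 libraries, with Benjamini-Hochberg adjustment over 10 comparisons. The smallest unadjusted p is 0.0312. The 6 libraries, 2 from each of 3 stages, share the same regions, so the p-values describe agreement between libraries, and do not treat regions as replicates. With replicates averaged by stage, 3 stages allow no p under 0.25, and the lowest adjusted p was 0.278 (exact permutation test).

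Maternal-only peaks ranked lower in their lists than peaks of regions that lasted longer. Their median percentile of −log10 q was 63.9 and 68.1 in GV oocytes, 61.9 and 53.6 in MII oocytes, and 42.0 and 59.4 in zygotes. The mean was 58.2 ± 9.27 for maternal-only regions and 76.5 ± 9.36 for regions called in all 12 libraries (SD, n = 6). The difference was negative in 6 of 6 libraries, at -18.4 on average (adjusted p = 0.0391, exact permutation test). Against regions called up to the 2-cell stage, at 80.1 ± 1.92, the difference was -21.9, again negative in 6 of 6 (adjusted p = 0.0391, exact permutation test). The sets differ by calls in embryonic lists, and a peak that ranks high may be called in more lists. Rank by q may thus bear on the rule, and how far it does was not tested.

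Ranks by fold told the sets apart differently. The median percentile of fold was 52.6 ± 8.53 for maternal-only regions and 50.9 ± 12.2 for regions called in all 12 libraries (SD, n = 6), higher in 4 of 6 libraries (adjusted p = 0.344, exact permutation test). The difference of 1.69 ran from -3.20 to 6.19 over the libraries. Regions called up to the 2-cell stage stood at 79.0 ± 2.91, above the maternal-only regions in 6 of 6 libraries, a difference of -26.4 (adjusted p = 0.0391, exact permutation test).

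Of the 3 sets, regions called up to the 2-cell stage had the fewest peaks near gene ends. Of maternal-only peaks, 31.3% ± 0.535 had the midpoint 2000 bp or less from a gene end, against 10.7% ± 0.300 of peaks called up to the 2-cell stage (SD, n = 6), higher in 6 of 6 libraries by 20.7 percentage points (adjusted p = 0.0391, exact permutation test). Peaks called in all 12 libraries gave 30.3% ± 0.799, a difference of 1.05 points (adjusted p = 0.0694, exact permutation test). That small difference depended on the setting: it was -0.967 without 2-cell replicate 2, and 4.21 with lists of equal length (adjusted p = 0.0391, exact permutation test) and 4.17 within 1000 bp (adjusted p = 0.0347, exact permutation test). Median gene length was 67646 bp for maternal-only regions, 121194 bp for those called up to the 2-cell stage and 37534.5 bp for those called in all 12 libraries.

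Maternal-only peaks were narrower, with a median width of 353 ± 65.7 bp against 441 ± 23.5 bp for regions called up to the 2-cell stage and 468 ± 97.8 bp for those called in all 12 libraries. They held 1.35 ± 0.155 summits a peak, against 1.63 ± 0.0460 and 1.60 ± 0.233. A wide interval meets other intervals more easily, so width and number of summits bear on the rule and are given as values, with no p, although they count among the 10 comparisons of the adjustment.

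**Figure D3:**
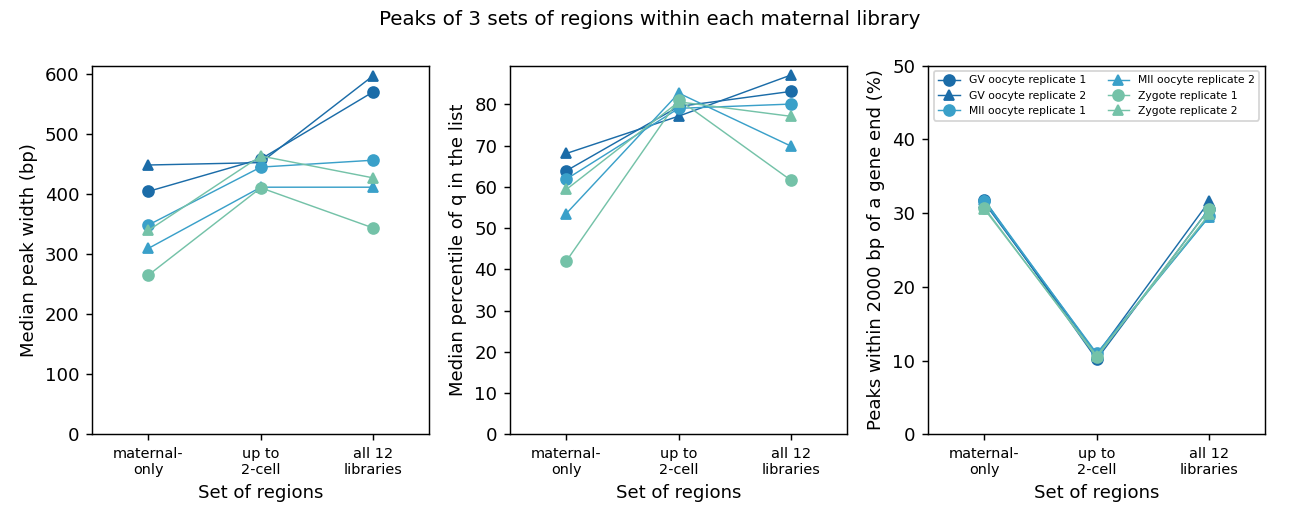
Median peak width (bp), median percentile of −log10 q and share of peaks within 2000 bp of a gene end (y axes) for the maternal-only regions, those called up to the 2-cell stage and those called in all 12 libraries (x axis), with a line for each of the 6 maternal libraries. Maternal-only regions have the lowest percentile in every library, and the share near gene ends is lowest for regions called up to the 2-cell stage, at 10.7% on average.

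Because the rule reads all 12 lists, it was also applied to the 6 replicate 1 libraries alone and read in the 6 replicate 2 libraries, and the other way round. Only the choice left the other 6 libraries unused. The merged regions and their extents came from all 12 lists, so the reading is not fully independent. On replicate 1 it chose 778 regions, 3.46% of genic regions. Of these, 94.1%, 88.4% and 92.3% had a peak in GV oocyte, MII oocyte and zygote replicate 2, against 15.3%, 3.73% and 2.57% in 2-cell, 8-cell and blastocyst replicate 2. The difference between the stage groups was 84.4 percentage points. On replicate 2 it chose 1088 regions, 4.83% of genic regions. Of these, 88.3%, 94.9% and 68.7% had a peak in the maternal replicate 1 libraries and 14.3%, 3.40% and 10.02% in the embryonic ones, a difference of 74.7 points. The exact two-sided permutation test gave p = 0.1 both ways (adjusted p = 0.1), the smallest that 3 libraries against 3 allow. Zygote replicate 1, with the lowest share, also has the shortest list, and 2-cell embryos kept the most regions of the embryonic stages. Of all genic regions, 18.7% to 36.4% were called in any 1 library.

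**Figure D4:**
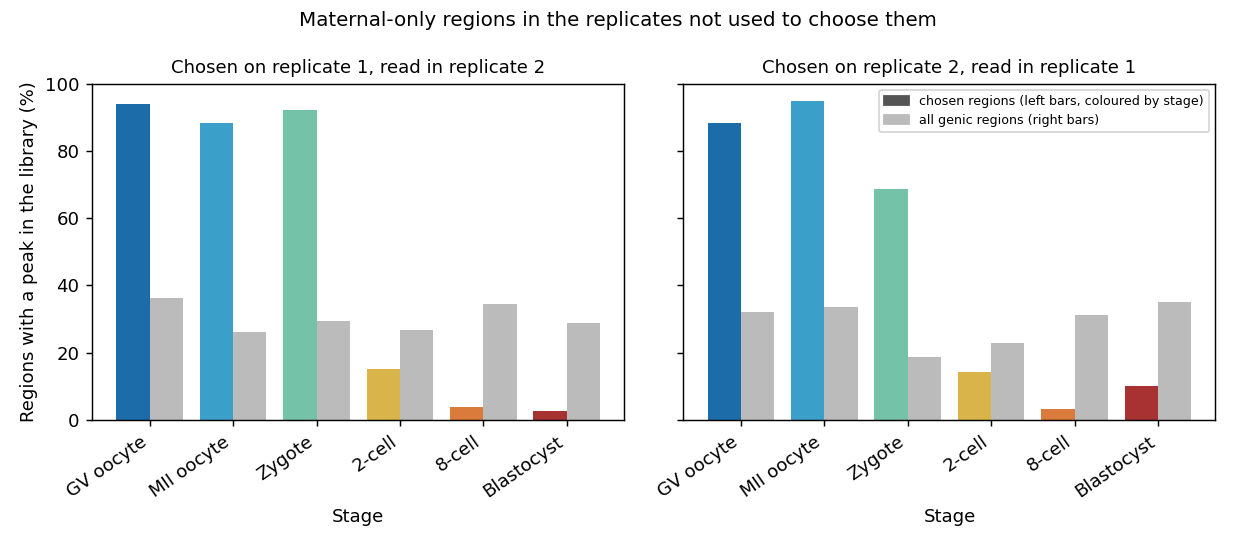
Share of regions with a peak (y axis, %) at each stage (x axis), for regions chosen on replicate 1 and read in replicate 2 (left) and the reverse (right), with grey bars for all genic regions. The chosen regions stand between 68.7% and 94.9% at the maternal stages and at 15.3% or less at the embryonic stages, where grey bars are higher.

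The genes themselves differed in whether an embryonic peak lay elsewhere over the body. Of the 432 genes, 238 had no embryonic peak anywhere over the body and 194 (44.9%) had one elsewhere. Among all 2277 genes with a peak in all 6 maternal libraries, 88.0% had an embryonic peak. The maternal-only regions hold no embryonic peak by the rule, so a lower share in the 432 genes is partly built in. In single libraries, 58.1% and 63.4% of the 432 genes had a peak outside the maternal-only region in GV oocytes, 59.7% and 50.0% in MII oocytes, and 40.3% and 54.9% in zygotes. The shares were 25.2% and 25.2% in 2-cell embryos, 13.7% and 14.4% in 8-cell embryos, and 16.7% and 17.6% in blastocysts. Maternal libraries averaged 54.4% ± 8.28 and embryonic ones 18.8% ± 5.20 (SD, n = 6 each). For all genes with a genic region the averages were 43.5% ± 7.93 in maternal and 45.8% ± 5.79 in embryonic libraries. This follows the contrast of the rule in the same genes, so no test is given.

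Genes with an embryonic peak elsewhere tended to be longer: their median length was 108236 bp, against 36851 bp for those without an embryonic peak and 28813 bp over all genes with a genic region. Whether these embryonic peaks were also called at maternal stages, and the part of gene length itself, were not tested. A peak elsewhere in all 6 embryonic libraries was found in 16 genes, led by Lrba, Rex2, Mllt10, Foxn3 and Wdfy3. At Mllt10, a partner of the histone methyltransferase Dot1l, the maternal-only region had folds of 5.64 and 6.15 in GV oocytes, 13.3 and 12.0 in MII oocytes, and 18.7 and 16.2 in zygotes, with GV oocytes lowest. Foxn3, a forkhead repressor gene, had an embryonic peak 1733 bp from the region and lower folds, of 2.87 to 4.57. The Lrba region also lies in the small gene Mab21l2. In all, 78 genes had a peak elsewhere in both 2-cell libraries, and 36 of them in none later. There were 84 genes, among them Umodl1, Gja4, Gtsf1 and Mos, with no other peak in any of the 12 lists outside their maternal-only regions.

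**Figure D5:**
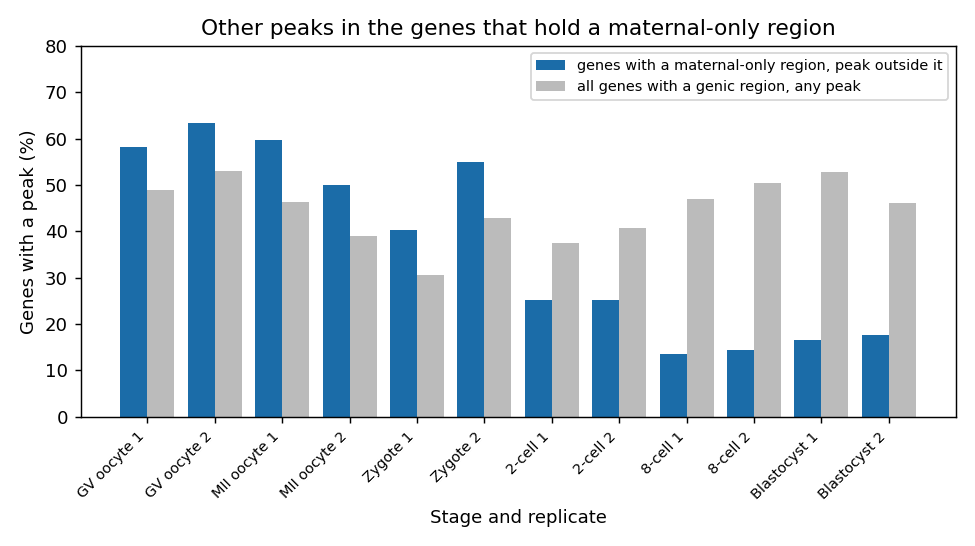
Share of genes with a peak (y axis, %) in each of the 12 libraries (x axis), for the 432 genes with a maternal-only region, counting only peaks outside it, and for all 9841 genes with a genic region. The first lies between 40.3% and 63.4% in maternal libraries and between 13.7% and 25.2% in embryonic ones, while the second lies between 30.6% and 53.1%.

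The edge of the rule is not sharp. Of 2562 regions called in all 6 maternal libraries, 484 (18.9%) were called in no embryonic library, 267 in 1, 441 in 2, 174 in 3, 218 in 4, 290 in 5 and 688 in 6. The 267 regions just outside were called in 2-cell replicate 1 (99) or 2-cell replicate 2 (95) more often than in any 8-cell or blastocyst library (9 to 38). Htr5a, a serotonin receptor gene, led them, with a maternal percentile of 99.1 and folds of 8.68 to 13.0 at chr5:27850635-27851751. Nhej1 and Tsc22d1 followed, and Tsc22d1 reached folds of 17.3 to 60.9. Another 379 regions had no embryonic call and 5 of 6 maternal ones, of which 199 were missed by zygote replicate 1 alone. Another Nlrp5 region, Ftdc1 and Pramel26 led these.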

How the data were processed

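Per the labels, RNA m6A was measured by antibody pull-down in 24 samples of 6 stages, and the 12 immunoprecipitated ones have a peak list each. Per the submitters' processing notes, the build was mm10, with HISAT2 2.1.0 and MACS2 2.1.2 among the tools named (also bedtools 2.28.0 and SAMtools 1.9). No settings of these tools are given. By its peak names, each deposited list was called by the authors on 1 library against its own input, and replicates were not pooled. The authors' peak caller wrote the fold of pull-down over input (a ratio), −log10 p and −log10 q, and a score of 10 times −log10 q. Every list held peaks with −log10 q above 1.3. Depth is unknown, so no counting interval is given.

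Here, summits of the same interval were counted as 1 peak, keeping the best q (143579 summits, 113764 peaks), and intervals were pooled and merged where they overlapped, with Python 3.11.15, numpy 2.4.6 and pandas 2.3.3. Genes were the 21887 protein-coding bodies of the RefSeq table for GRCm38.p6, which has no exons. Strand came from the RefSeq promoter table (17492 genes), so exon, intron and UTR were not told apart. The 16 gene lists, 8 families named by symbol prefix, and the regions themselves were chosen with earlier results of these data known. Named were the 20 top regions by mean percentile, up to 6 genes a list or family, the 5 genes with most regions, the 5 widest regions, 5 leading genes without and 5 with embryonic peaks throughout, the 3 lowest regions, and 3 on each side just outside the rule. One gene that this rule names is not reported here. The regions shown by promoter sequence were chosen after their values were seen. Replicates are biological, per the series' design text. Tests were exact permutation tests, and the rule and tests were tested on simulated peaks. The alternatives changed merging, q, list length, gene assignment, window, libraries and pairing.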

Additional observations from a re-analysis of the deposited data

How the results depend on the processing

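Merging intervals up to 100 bp apart gave 482 maternal-only regions, peaks with −log10 q of at least 2 gave 483, and any overlap with a gene gave 487. With 6914 peaks from every library there were 375, of which 291 were among the 484, so 193 of the 484 did not meet the rule at equal list length. Leaving out any 1 library takes away a condition of the rule, so a higher count is largely built in. The count rose each time, at most to 684 regions and 585 genes, without zygote replicate 1. Without an embryonic peak within 1000 bp, 444 regions remained. The difference near gene ends against regions called in all 12 libraries was 1.26 points at the stricter q (adjusted p = 0.0347, exact permutation test), 4.21 with equal lists (0.0391) and 4.17 with a 1000 bp window (0.0347). It ran from -0.967 to 1.74 when single libraries were left out, and was negative without GV oocyte replicate 1 (-0.240), zygote replicate 1 (-0.310), 2-cell replicate 1 (-0.0548) or 2-cell replicate 2 (-0.967). The cause was not tested. Equal lists gave, against regions called in all 12 libraries, -11.5 for the percentile of q, -86.9 bp for width and -0.150 for summits. Against regions called up to the 2-cell stage they gave -14.1, -106 bp and -0.271, and -22.2 for the percentile of fold. The percentile of q thus differed less than in the full lists, where it was -18.4 and -21.9. With 1 maternal library left out the smallest p is 0.0625, so differences in percentiles and near gene ends miss 0.05 by construction. With any 1 of the 12 libraries left out, the differences from regions called in all 12 libraries ran from -126.8 to -104 bp for width, -20.3 to -16.2 for the percentile of q and -0.265 to -0.214 for summits. Those from regions called up to the 2-cell stage ran from -109 to -65.8 bp for width, -28.6 to -19.4 for the percentile of fold, -24.4 to -17.5 for that of q, -0.334 to -0.219 for summits and 14.7 to 21.1 points near gene ends. Equal replicate numbers did not pair the stages: correlations of the replicate difference between 15 pairs of stages ran from -0.180 to 0.0425. With a replicate block, averaging the replicates of a stage, values are the same by construction, since each stage has 2 libraries. They were -115 and -87.7 bp for width and -0.246 and -0.281 for summits, and -18.4, -21.9 (percentile of q), -26.4 (percentile of fold) and 20.7 points (near gene ends) for the tested differences, where 3 stages allow no p under 0.25 (adjusted p = 0.278, exact permutation test). Permuting labels within replicate number cannot change the maternal minus embryonic share of genes with another peak, which was 35.6 points.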

Other observations

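Maternal-only regions also lay in families outside the oocyte lists. Of 15 cadherin and protocadherin genes with a merged region, which encode adhesion proteins, 5 held a member (33.3%, beside 4.39% of all genes). A region called in all 6 maternal libraries was held by 7 of the 15. Pcdh10 had the highest minimum of all members, with folds of 13.6 and 14.9 in GV oocytes, 20.8 and 17.0 in MII oocytes, and 13.6 and 22.4 in zygotes. Cdh20 ran from 6.25 to 15.4, near the 3′ end of a gene of 227142 bp. Among potassium channel genes, 6 of 31 were members (19.4%), with Kcnh5 at 5.29 to 16.8 and Kcnk18 at 3.71 to 7.09. Of the 31, 8 had a region called in all 6 maternal libraries. Solute carriers stood near the share of all genes, with 9 of 186 (4.84% beside 4.39%), as did zinc finger genes, with 22 of 368 (5.98%), and ubiquitin-specific proteases, with 3 of 49 (6.12%). These families were named with earlier results known, so the shares are descriptions. The widest maternal-only region, 2339 bp, lay in the zinc finger gene Zfp735, followed by Gcnt4 with 2136 bp and Trim60 with 2125 bp.

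Outside protein-coding genes, 421 further regions met the same rule on the libraries and were not assigned to a gene. Among 32 groups of 6 libraries, made of summary measures and of the folds at the 20 top regions, none held a value far outside the others by Dixon's criterion, which flags about 1 group in 20 by chance.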
